A study of Mus musculus with 9 samples.

Results

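The nuclear genes for the subunits of complexes III and IV and of ATP synthase were examined in the right ventricle. These were all genes whose symbol begins with Uqcr, with Cox followed by a digit from 4 to 8, or with Atp5 in the annotation of the array. Of 43 such symbols, 41 had a probe set that belonged to that gene alone, and these 41 are a small part of the 18820 genes tested. They comprised 7 genes of complex III, 17 of complex IV and 17 of ATP synthase. The remaining symbols, Cox7c and Uqcrc2, were measured only by probe sets shared with another gene. Where a gene had several probe sets, the brightest one was used.

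RNA came from the right ventricle of 9 female C57BL/6 mice, with 1 array per mouse and 3 mice per group. They were a subset of the study's 9 sham, 9 MCT and 10 MCT+NI mice. The methods describe the samples put on arrays as matched for disease severity. Sham mice (620, 624 and 625) were injected with saline and ate the standard semi-synthetic diet AIN-93M. MCT mice (640, 641 and 644) ate that diet and received 600 mg/kg monocrotaline under the skin once a week for 8 weeks from 10 weeks of age, and MCT+NI mice (615, 617 and 619) received the same injections with an isocaloric diet rich in protein, leucine, oligosaccharides and fish oil. Monocrotaline is a plant alkaloid whose metabolites injure the pulmonary vessels, and it is used to raise the load on the right ventricle. No group was fed the NI diet without monocrotaline, so an effect of the diet alone was not measured. The comparisons ask how the transcripts differ after monocrotaline (MCT against sham) and how they differ with the diet (MCT+NI against MCT).

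The respiratory chain of the inner mitochondrial membrane passes electrons from complexes I and II through ubiquinol to complex III, by cytochrome c to complex IV and from there to oxygen. The protons pumped on the way drive ATP synthase. Complex III (ubiquinol-cytochrome c reductase) contains the Rieske iron-sulfur protein and core proteins. Complex IV (cytochrome c oxidase) has a catalytic core encoded in mitochondrial DNA, surrounded by nuclear subunits, several of which exist as a heart and muscle isoform and a widely expressed isoform. ATP synthase consists of a catalytic head, a rotor with a ring of c subunits, and a stator. Cardiomyocytes are packed with mitochondria and depend on this system for contraction. Of the mitochondrially encoded subunits, 0 of 6 had a probe set of their own, so all values here concern the nuclear part.

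Promoter sequences are shown for 4 members whose values recur below: Uqcrfs1, which had the smallest p of complex III, Uqcr11, which differed most between MCT+NI and MCT mice in this complex, Atp5g2, which had the smallest p of ATP synthase, and Cox6a1, which differed in the other direction. Each is the 250 bases before the RefSeq start in GRCm38.p6, written 5′ to 3′ on the strand of the gene. Capitals mark matches to the letters of 5 binding motifs described in the next paragraph. Uqcrfs1 lies at chr13:30545317-30545566 (minus strand), Uqcr11 at chr10:80406822-80407071 (minus strand), Atp5g2 at chr15:102671048-102671297 (minus strand) and Cox6a1 at chr5:115348959-115349208 (minus strand).
Uqcrfs1: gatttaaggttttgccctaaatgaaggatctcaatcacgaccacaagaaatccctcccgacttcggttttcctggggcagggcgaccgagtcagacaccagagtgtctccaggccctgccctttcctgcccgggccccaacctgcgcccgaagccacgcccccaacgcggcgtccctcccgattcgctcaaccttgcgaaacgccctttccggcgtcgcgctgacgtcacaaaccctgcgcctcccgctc
Uqcr11: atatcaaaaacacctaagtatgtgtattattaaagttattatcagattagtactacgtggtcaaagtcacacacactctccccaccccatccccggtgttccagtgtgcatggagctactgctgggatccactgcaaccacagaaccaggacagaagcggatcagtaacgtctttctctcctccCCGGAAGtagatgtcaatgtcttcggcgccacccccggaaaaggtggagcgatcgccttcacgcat
Atp5g2: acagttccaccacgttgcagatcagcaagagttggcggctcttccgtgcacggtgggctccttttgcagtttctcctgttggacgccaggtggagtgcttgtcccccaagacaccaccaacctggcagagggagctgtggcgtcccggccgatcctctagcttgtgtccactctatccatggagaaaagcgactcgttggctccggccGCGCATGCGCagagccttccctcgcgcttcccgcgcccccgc
Cox6a1: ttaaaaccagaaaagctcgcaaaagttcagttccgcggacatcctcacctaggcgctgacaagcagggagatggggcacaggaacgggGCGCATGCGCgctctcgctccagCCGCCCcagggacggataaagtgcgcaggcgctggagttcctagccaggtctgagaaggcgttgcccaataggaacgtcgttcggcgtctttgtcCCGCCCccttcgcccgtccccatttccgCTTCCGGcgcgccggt

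The motifs were searched on both strands in windows of 300 bases, 250 before to 50 after the start, which were at hand for 32 of the 41 members (35 windows) and for 32851 starts in all. Nuclear respiratory factor NRF1, whose core letters GCGCATGC were searched, and the GA-binding protein, an ETS factor searched as CCGGAAG, are known activators of respiratory chain genes. The NRF1 letters were present in 17.1% of the members' windows and in 2.71% of all windows. They occurred in Atp5g2, Atp5k, Atp5l, Cox6a1, Uqcr11 and Uqcrc1. The ETS letters were present in 31.4% of the members' windows and in 8.86% of all windows. Letters for estrogen-related receptors (AAGGTCA) occurred in 11.4% against 4.72%, those of YY1 (AAGATGG) in 8.57% against 6.34%, and those of Sp1 (GGGCGG) in 34.3% against 35.7%. In Atp5g2 the NRF1 letters overlapped on both strands and began 42 bases before the start, and in Cox6a1 they began 162 bases before it. The Cox6a1 sequence also held the Sp1 letters at 2 places and the ETS letters 16 bases before the start. Uqcr11 held the ETS letters 66 bases before the start, and none of the letters was found in the Uqcrfs1 sequence shown. A match of letters is not evidence that a factor was bound.

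Most members gave bright probe sets. The mean log2 value over the 9 arrays was above 9 in 36 of 41 members, on a scale whose highest value was 13.4 and whose median gene was at 5.42. Probe brightness depends on the probe as well as on the transcript, so levels of different genes are not ranked. Cox4i2, Cox6b2, Cox8c and Cox7b2 were dim, with mean log2 values of 5.93, 5.23, 3.92 and 2.48. Cox6b2, Cox7b2 and Cox8c are isoforms known from the testis. In the other 37 members the median standard error of a difference was 0.038 on the log2 scale, compared with 0.090 over all genes. Over all genes at least as bright as the dimmest of these 37 it was 0.055. Among the 37, Atp5mpl had a wide spread, with a standard error of 0.158.

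The mice differed in transcripts that mark atrial muscle. These transcripts of atrial muscle (Myl7, Nppa, Sln, Myl4, Dkk3, Bmp10 and Stard10) had a summed level of 13.9 to 14.5 on the log2 scale in sham mice. In MCT mice the sum was 10.4 in mouse 640, 10.9 in mouse 641 and 14.2 in mouse 644, and in MCT+NI mice it was 13.3 in mouse 615, 10.8 in mouse 617 and 10.6 in mouse 619. The 3 sham mice, MCT mouse 644 and MCT+NI mouse 615 were thus high. Summed levels of 9 transcripts of cardiomyocytes, most of which atrial muscle expresses too, were 15.66 to 15.68 in sham, 15.65 to 15.67 in MCT and 15.68 to 15.69 in MCT+NI mice. This sum rests on its brightest probe sets, and 1 of the 9, the calcium channel Ryr2, fell in MCT compared with sham mice (-0.170, adjusted p = 0.0234, limma). At an adjusted p under 0.05, where 1.61% of all genes fell and 4.65% rose in MCT compared with sham mice, 2 of 5 endothelial genes rose and 0 fell. Of 8 fibroblast genes 4 rose and 0 fell, with Pdgfra and Tcf21 at -0.191 and -0.094. Of 6 macrophage genes Cd68 rose (0.706) and Cd163 fell (-1.20).

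**Figure D1:**
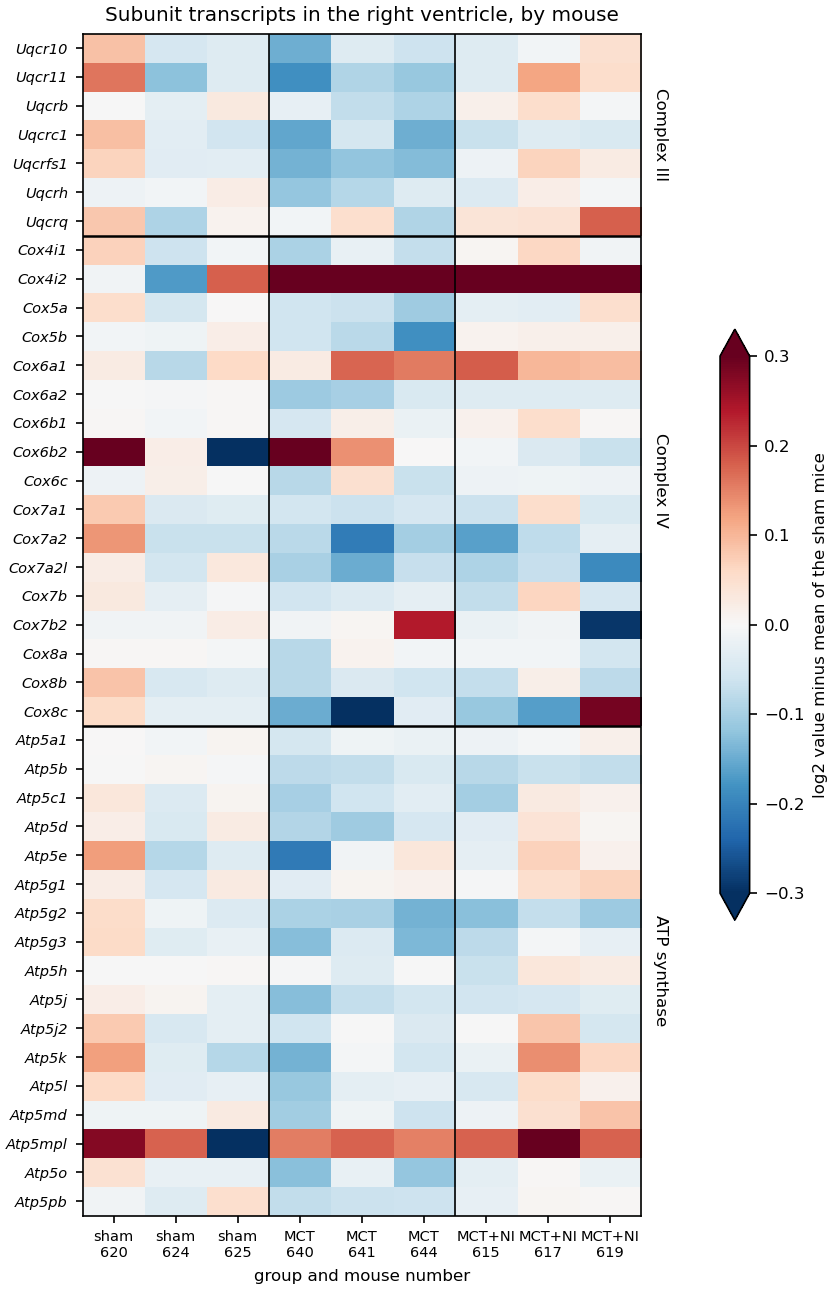
Heat map of the 41 members (vertical axis, ordered by complex) in each of the 9 mice (horizontal axis, by group). Colour is the log2 value minus the mean of the 3 sham mice, clipped at 0.3 in either direction; most members are pale blue in the MCT mice, most strongly in mouse 640, while Cox4i2 is dark red in all MCT and MCT+NI mice.

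Compared with sham mice, MCT mice had slightly lower values of most members, whereas a single gene, the alternative complex IV isoform Cox4i2, was higher beyond the threshold. Of 41 members, 36 had a lower mean in MCT than in sham mice and 5 a higher one. The median log2 difference was -0.063, and it was -0.083 in complex III, -0.056 in complex IV and -0.064 in ATP synthase. Over all genes tested it was -0.016, and over the 2283 genes at least as bright as the dimmest of the 37 bright members it was -0.032. A lower mean in MCT than in sham mice was found in 55.0% of all genes and in 61.0% of these 2283. With limma and Benjamini-Hochberg adjustment over all genes, 0 members fell and 1 rose at an adjusted p under 0.05 (all genes 1.61% and 4.65%). At an unadjusted p under 0.05, 13 members were lower and 1 was higher, against 9.14% and 10.6% of all genes. Of these 13, Uqcrfs1, Cox6a2 and Atp5g2 were lower at an unadjusted p under 0.01. The 13 members make up 31.7% of the 41, and among the 2283 genes of like brightness 21.4% were lower at this threshold. The 3 MCT mice lay below the 3 sham mice without overlap in 16 members (10.2% of all genes) and above them in 1 (11.7%). Among the 2283 genes of like brightness they lay below in 537 and above in 378. The small lower values of single members therefore did not pass the adjusted threshold, and their counts are a description of the group.

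**Figure D2:**
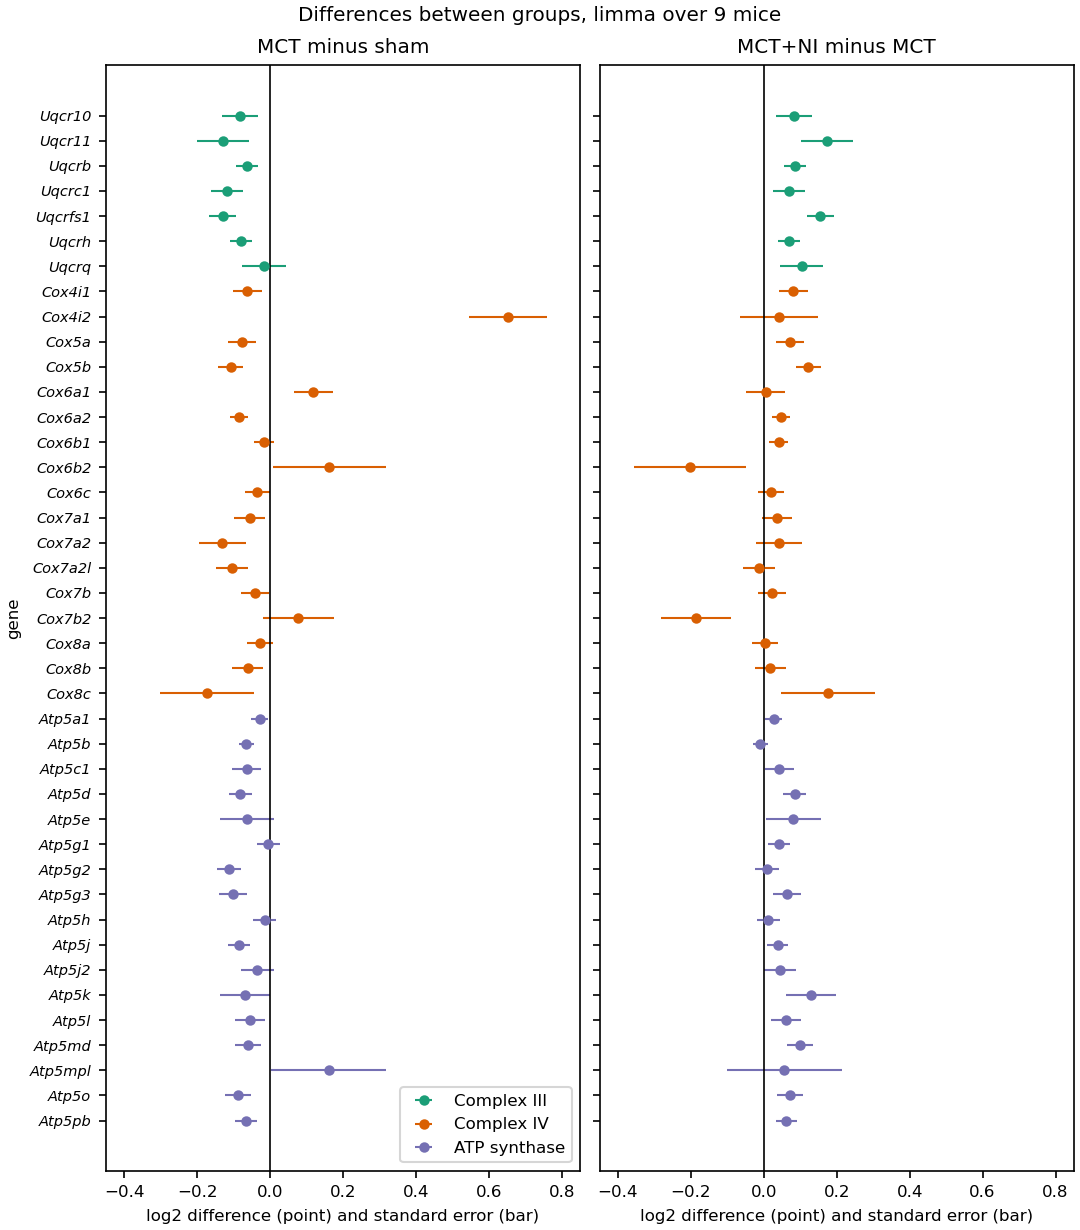
Log2 difference of each member (point) with its limma standard error (bar), MCT minus sham on the left and MCT+NI minus MCT on the right, coloured by complex. On the left 36 of 41 points lie below 0 and Cox4i2 stands far to the right at 0.65; on the right 37 of 41 points lie above 0.

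In complex III all 7 members were lower in MCT mice. Uqcrfs1, the Rieske iron-sulfur protein that takes electrons from ubiquinol, had log2 values of 10.38, 10.28 and 10.28 in sham mice and of 10.17, 10.19 and 10.18 in MCT mice. The groups did not overlap, and the MCT mice lay close together. The log2 difference was -0.130 ± 0.038 (SE), a 0.914-fold level (adjusted p = 0.0848, limma). Uqcrc1, a core protein, was at 11.29, 11.17 and 11.14 in sham mice and at 11.04, 11.15 and 11.05 in MCT mice. MCT mouse 641 reached the lowest sham mouse, and the log2 difference was -0.119 ± 0.044 (adjusted p = 0.179). Uqcrh, the hinge protein that assists electron transfer to cytochrome c, had a log2 difference of -0.080 ± 0.030 (adjusted p = 0.179, limma) without overlap, but of 0.0013 when its probe sets were averaged. For Uqcrb, a small structural subunit, the log2 difference was -0.063 ± 0.030 (adjusted p = 0.290). Uqcr10, Uqcr11 and Uqcrq, also small subunits, had log2 differences of -0.083, -0.128 and -0.016.

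In complex IV, 13 of 17 members were lower in MCT mice and 4 were higher. Cox6a2, the heart and muscle isoform of subunit VIa, was at 11.94, 11.94 and 11.95 in sham mice. It was at 11.83, 11.84 and 11.90 in MCT mice, all below the sham values, and the log2 difference was -0.086 ± 0.025 (adjusted p = 0.0851, limma). Cox5b, a subunit on the matrix side, was at 11.37, 11.37 and 11.40 in sham mice and at 11.32, 11.30 and 11.20 in MCT mice, with a log2 difference of -0.108 ± 0.035 (adjusted p = 0.117). The groups were again separate, with MCT mouse 644 the lowest. Cox7a2l, known as a factor for supercomplexes of complexes III and IV, had a log2 difference of -0.105 ± 0.044 (adjusted p = 0.232, limma). A second, dimmer probe set gave -0.059, and the function of Cox7a2l in this strain was not measured. Cox5a, the partner of Cox5b, was lower without overlap by a log2 difference of -0.077 ± 0.038 (adjusted p = 0.317). Cox6c, Cox6b1, Cox7b and Cox8a differed by less at the probe sets used, with log2 differences between -0.042 and -0.017. Dimmer probe sets of Cox7b and Cox6c gave larger differences, of -0.1355 and -0.0752.

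In ATP synthase, 16 of 17 members were lower in MCT mice, 7 of them at an unadjusted p under 0.05 (all genes 9.14%, genes of like brightness 21.4%). Of the 7, Atp5pb passed this threshold in 4 of 17 alternatives, Atp5o in 8, Atp5d in 10, Atp5g3 in 11, Atp5j in 13, Atp5b in 14 and Atp5g2 in 17. Atp5b, the catalytic beta subunit, was at 12.80 in all 3 sham mice and at 12.72, 12.73 and 12.75 in MCT mice. The groups were separate, and the log2 difference was -0.065 ± 0.021 (adjusted p = 0.119, limma). The c subunits that form the rotor ring are encoded by 3 genes. Of these Atp5g2 was at 11.24, 11.17 and 11.14 in sham and 11.09, 11.08 and 11.04 in MCT mice, with a log2 difference of -0.112 ± 0.033 (adjusted p = 0.0916). Atp5g3 differed by -0.101 ± 0.038 (adjusted p = 0.184), and Atp5g1 by -0.0046 ± 0.031 with a 95% interval of -0.075 to 0.066. Of the stator, Atp5j (coupling factor) differed by -0.085 ± 0.029 (adjusted p = 0.139), Atp5o (the oligomycin sensitivity-conferring protein) by -0.088 ± 0.036 and Atp5pb (subunit b) by -0.066 ± 0.029. The central stalk subunits Atp5d (delta), Atp5c1 (gamma) and Atp5e (epsilon) differed by -0.081, -0.064 and -0.063. The catalytic alpha subunit Atp5a1 differed by -0.029 ± 0.023. Atp5mpl, a small proteolipid of the membrane part, was the exception with 0.161 ± 0.158. Sham mouse 625 was at 10.35 for this gene and the other 8 mice were between 10.96 and 11.10, and without mouse 625 the log2 difference was -0.065 ± 0.049.

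The lower values were carried to an unequal extent by single mice. For each mouse the median over all 41 members was taken relative to the sham mean. It was 0.033, -0.034 and -0.0035 in sham mice 620, 624 and 625. It was -0.084, -0.042 and -0.049 in MCT mice 640, 641 and 644, and -0.029, 0.019 and 0.0038 in MCT+NI mice 615, 617 and 619. All MCT mice were below all other mice, but sham mouse 624 and MCT mouse 641 differed by less than sham mice did among themselves. Of the 37 bright members, 15 had their highest value in sham mouse 620 and 20 their lowest in MCT mouse 640. Without mouse 620, 32 of 41 members were lower in MCT mice and 7 at an unadjusted p under 0.05, and without mouse 640 these numbers were 33 and 6. With the atrial level as a covariate, 36 members were lower and 7 at that threshold. Of the 13 members lower at it without the covariate, Uqcrfs1, Uqcrc1, Cox5b, Atp5g2, Atp5g3 and Atp5o then stayed under it. Uqcrh, Cox6a2, Cox7a2l, Atp5b, Atp5d, Atp5j and Atp5pb did not, and their log2 differences were -0.061, -0.058, -0.068, -0.054, -0.078, -0.070 and -0.071. Without mice 644 and 615 together 36 were lower, and Uqcrc1, Cox7a2l, Atp5g3, Atp5o and Atp5pb were no longer under the threshold. With each array centred on its median, 36 were lower, 22 at that threshold and Cox5b and Cox6a2 past the adjusted one. When quantile normalization was repeated, 32 were lower and 2 at that threshold.

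**Figure D3:**
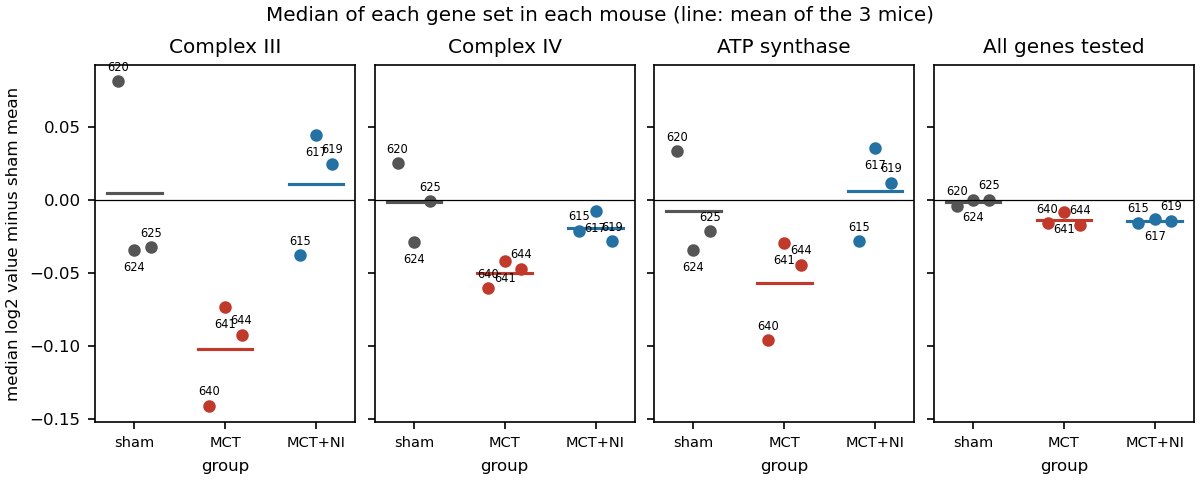
Median over the members of complex III, complex IV and ATP synthase, and over all genes tested, in each mouse (points, numbered), as log2 value minus the mean of the 3 sham mice; lines are means of 3 mice. The MCT medians are -0.141, -0.074 and -0.092 in complex III, and sham mouse 620 lies apart from the other sham mice at 0.081.

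The clearest difference concerned Cox4i2, the isoform of subunit IV known from lung and from hypoxic cells, where it takes the place of Cox4i1 and alters the response of the enzyme to oxygen. Its log2 values were 5.47, 5.31 and 5.66 in sham mice, 6.11, 6.27 and 6.02 in MCT mice and 6.05, 6.22 and 6.26 in MCT+NI mice. Every MCT and MCT+NI mouse was above every sham mouse, and the MCT and MCT+NI values overlapped. Cox4i2 rose 1.57-fold in MCT compared with sham mice (log2 difference 0.653 ± 0.107, adjusted p = 0.00758, limma) and 1.62-fold in MCT+NI compared with sham mice (0.695 ± 0.107, adjusted p = 0.00556). Both comparisons share the sham mice. MCT+NI mice differed from MCT mice by 0.043 on the log2 scale, with a 95% interval of -0.199 to 0.285. The call held in 16 of 17 alternatives, including the fit without mice 644 and 615 (0.711, adjusted p = 0.0208). It was lost with the atrial level as a covariate (MCT against sham 0.515, adjusted p = 0.0849; MCT+NI against sham 0.544, adjusted p = 0.101).

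Cox4i1, the main isoform, was at 11.06, 10.93 and 10.98 in sham, 10.90, 10.97 and 10.92 in MCT mice and ranged from 10.98 to 11.05 in MCT+NI mice. It overlapped between sham and MCT mice and differed by -0.063 ± 0.040 (adjusted p = 0.443, limma). The log2 ratio of Cox4i2 over Cox4i1 within an array was 0.715 higher in MCT than in sham mice, without overlap. An exact two-sided permutation test gave p = 0.1, the smallest value that 3 against 3 mice allow (0.3 adjusted over 12 tests of 4 isoform pairs). Transcripts of vascular cells were compared between the same mice. A list of 8 pericyte transcripts held Rgs5, Pdgfrb, Kcnj8, Abcc9, Notch3, Cspg4, Higd1b and Ndufa4l2. Of these 8, 7 rose in MCT compared with sham mice at an adjusted p under 0.05 (4.65% of all genes). The median log2 difference over the 8 was 0.582. In MCT+NI compared with sham mice 7 of 8 rose at that threshold as well (4.52% of all genes), with a median of 0.635. Rgs5, a regulator of G protein signalling in mural cells, was higher by 0.676 (adjusted p = 0.00776, limma), and Higd1b by 0.692 (adjusted p = 0.0166). This list was written after the Cox4i2 values had been seen. Of 4 smooth muscle transcripts 1 rose at that threshold in MCT compared with sham mice, Tagln (0.583, adjusted p = 0.0243, limma). Acta2, Myh11 and Cnn1 had log2 differences of 0.353, 0.329 and -0.212. Of 5 endothelial transcripts Cdh5 (0.736, adjusted p = 0.00186, limma) and Pecam1 (0.687, adjusted p = 0.00357, limma) rose at it. Kdr, Emcn and Tek had log2 differences of 0.448, 0.128 and -0.471. Tek, a receptor for angiopoietins, fell in MCT+NI compared with sham mice (-0.615, adjusted p = 0.0348). The smooth muscle and endothelial lists thus held genes in both directions. In the pericyte list Abcc9 did not pass the threshold, with a log2 difference of 0.017 for MCT against sham mice. In pieces of whole tissue, more cells of a type and more RNA per cell cannot be told apart. The part of these cells in the Cox4i2 result was not tested.

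**Figure D4:**
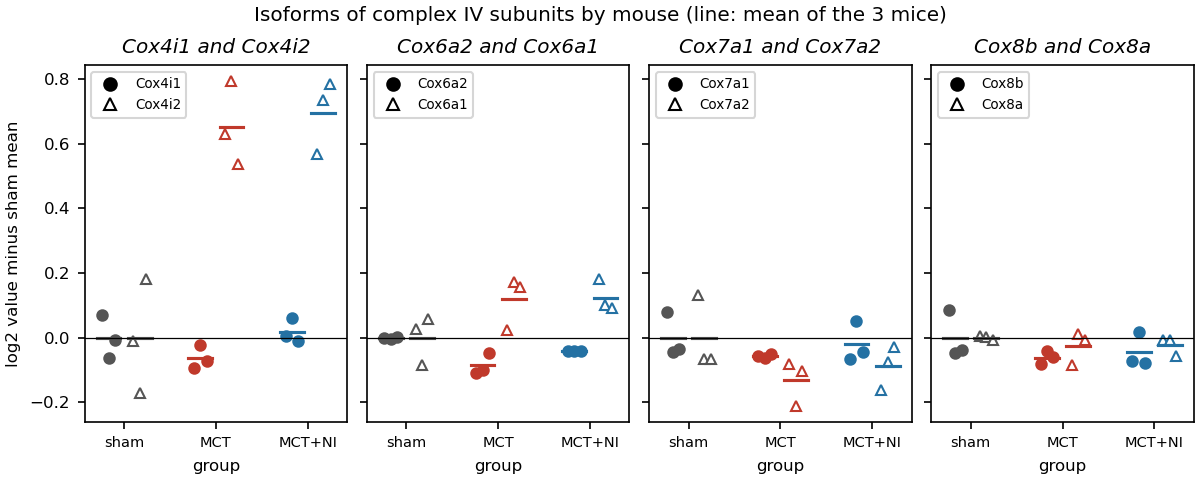
Isoform pairs of complex IV in each mouse as log2 value minus the mean of the 3 sham mice; filled circles are the main heart isoform and open triangles the other isoform, and lines are means of 3 mice. Cox4i2 lies between 0.54 and 0.79 in MCT and MCT+NI mice, and Cox6a1 and Cox6a2 lie on opposite sides of 0 in both groups.

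A smaller divergence was present in subunit VIa. Cox6a1, the widely expressed isoform, was at 9.82, 9.71 and 9.86 in sham mice, 9.82, 9.97 and 9.96 in MCT mice and 9.98, 9.90 and 9.89 in MCT+NI mice. Only the MCT+NI mice were separate from the sham mice. The log2 difference was 0.118 ± 0.054 for MCT (adjusted p = 0.269) and 0.124 ± 0.054 for MCT+NI against sham mice (adjusted p = 0.250, limma). A dimmer probe set of Cox6a1 gave 0.106 and 0.180. The log2 ratio of Cox6a1 over Cox6a2 was higher by 0.204 in MCT and by 0.163 in MCT+NI than in sham mice, each without overlap (exact permutation p = 0.1, adjusted 0.3). In subunits VIIa and VIII both isoforms had lower means in MCT than in sham mice. Cox7a1, the muscle isoform, and Cox7a2 differed by -0.056 ± 0.042 and -0.131 ± 0.064 between MCT and sham mice. Cox8b, the muscle isoform, and Cox8a differed by -0.062 ± 0.043 and -0.027 ± 0.035. Their log2 ratios (Cox7a2 over Cox7a1 and Cox8a over Cox8b) were changed by -0.075 and 0.035, with exact permutation p of 0.2 and 0.5. Cox6b1, which sits between the partners of the enzyme dimer, differed by -0.017 ± 0.027, and its dim partner Cox6b2 by 0.163 ± 0.155 with values from 4.85 to 5.51 within the sham group.

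In MCT+NI mice the members were slightly higher than in MCT mice, and no member passed the adjusted threshold. Of 41 members 37 had a higher mean, as did 8963 of the 18820 genes tested and 1308 of the 2283 genes of like brightness. The median log2 difference was 0.046, and it was 0.085 in complex III, 0.037 in complex IV and 0.057 in ATP synthase, compared with -0.0046 over all genes and 0.011 over the genes of like brightness. At an adjusted p under 0.05 limma called 0 of the 18820 genes. At an unadjusted p under 0.05, 7 members were higher and 0 lower, against 1.59% and 1.3% of all genes, and 2 of them, Uqcrfs1 and Cox5b, were higher at an unadjusted p under 0.01. The 7 members are 17.1% of the 41, and 3.72% of the genes of like brightness were higher at this threshold. The MCT+NI mice lay above the MCT mice without overlap in 9 members (3.11% of all genes) and below them in 1, Cox6b2 (2.96%). Among the 2283 genes of like brightness they lay above in 162 and below in 70. Because the same MCT mice enter this comparison and that with sham, low values in these mice lower one and raise the other.

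Uqcrfs1 was at 10.30, 10.38 and 10.34 in MCT+NI mice, all above the MCT mice, which lay between 10.17 and 10.19. The log2 difference was 0.155 ± 0.038 (adjusted p = 1, limma), and it kept an unadjusted p under 0.05 in all 17 alternatives. Cox5b was at 11.39, 11.39 and 11.40 in MCT+NI mice, also above all MCT mice, with a log2 difference of 0.122 ± 0.035 (adjusted p = 1, limma), and it too kept that threshold in all 17, although between MCT and sham mice it lost it in 2. Uqcrb differed by 0.085 ± 0.030 and Atp5md, a small subunit that stabilises the dimer of ATP synthase, by 0.099 ± 0.035. The remaining 3 members of the 7 were Uqcr11 (0.173 ± 0.072), Uqcrh (0.070 ± 0.030) and Atp5d (0.085 ± 0.032). These 5 passed the unadjusted threshold in fewer alternatives, Uqcrh in 5 of 17 alternatives, Uqcr11 in 8 and Uqcrb, Atp5md and Atp5d in 11 each. In complex III all 7 members were higher, 4 of them (Uqcrfs1, Uqcrb, Uqcr11 and Uqcrh) at an unadjusted p under 0.05, compared with 1.59% of all genes and 3.72% of those of like brightness. In ATP synthase 16 of 17 were higher and in complex IV 14 of 17. Atp5g2 and Atp5b, by contrast, were close to the MCT mice, with differences of 0.0097 (95% interval -0.065 to 0.085) and -0.0092 (-0.057 to 0.038).

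Against sham mice, MCT+NI mice showed no common direction. Of 41 members 22 were lower (55.6% of all genes) and 19 higher, with a median log2 difference of -0.002 (all genes -0.017). The count depended on the processing, since 14 were lower without mouse 615, 30 without sham mouse 624 and 36 with each array centred on its median. At an adjusted p under 0.05, 0 members were lower (1.75% of all genes) and 1, Cox4i2, higher (4.52%). At an unadjusted p under 0.05, 3 were lower (9.37%) and 2 higher (10.2%). Groups did not overlap in 6 lower members (10.3%) and 2 higher members (10.7%). Among the 2283 genes of like brightness they did not overlap in 454 lower and 375 higher genes. The 3 lower members were Atp5b (-0.074 ± 0.021, adjusted p = 0.0785, limma), Atp5g2 (-0.102 ± 0.033, adjusted p = 0.123) and Cox7a2l (-0.118 ± 0.044, adjusted p = 0.181). Dimmer probe sets of Atp5g2 gave -0.103 and -0.105 in this comparison, whereas that of Cox7a2l gave 0.014, the opposite sign. With the atrial level as a covariate, 1 member was lower at the unadjusted threshold, Atp5g2 (-0.141). Atp5b was at 12.72, 12.73 and 12.73 in MCT+NI mice and at 12.80 in the sham mice, with no overlap. The 95% interval of the difference from sham ran from -0.060 to 0.110 for Uqcrfs1 and from -0.065 to 0.092 for Cox5b, genes named here for their difference between MCT+NI and MCT mice. It ran from -0.122 to -0.027 for Atp5b and from -0.177 to -0.027 for Atp5g2.

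Other genes of the same pathway were read from lists of subunits, assembly factors and regulators. Of 33 complex I subunits, 30 were lower in MCT than in sham mice (55.0% of all genes), with a median log2 difference of -0.070. At the adjusted threshold 1 fell (1.61% of all genes), Ndufv2 (-0.149, adjusted p = 0.0485, limma). In MCT+NI compared with MCT mice, 33 of 33 were higher (8963 of the 18820 genes tested), with a median of 0.096, and 0 passed the adjusted threshold. The 4 subunits of complex II, which oxidises succinate, had log2 differences between -0.151 and -0.099 for MCT against sham mice, with 0 past the adjusted threshold. Ndufa4, once assigned to complex I and now counted with complex IV, fell by 0.148 (adjusted p = 0.0163), whereas Cyc1, Cycs and the ATP synthase inhibitor Atpif1 had differences of -0.052, 0.031 and 0.118. Of 23 assembly factors of complex IV, 15 were lower and 0 passed the adjusted threshold; the smallest p belonged to Surf1 (-0.204, adjusted p = 0.0601). Of 6 assembly factors of complex III 5 were lower and of 5 for ATP synthase all 5, with 0 past the threshold in either list. Among 11 regulators of mitochondrial genes, the estrogen-related receptors Esrrg and Esrrb fell in MCT compared with sham mice, with log2 differences of -0.369 (adjusted p = 0.0452, limma) and -0.268 (adjusted p = 0.0358). The coactivator Ppargc1a differed by -0.278 (adjusted p = 0.0564), and Nrf1, Gabpa and Tfam by 0.112, -0.085 and -0.015. Esrrg also fell in MCT+NI compared with sham mice (log2 difference -0.424, adjusted p = 0.0254). With the diet, 5 of the 11 regulators were higher than in MCT mice and 6 were lower, with a median of -0.0021.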

How the data were processed

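Right ventricular RNA (100 ng per mouse) was hybridised to Affymetrix mouse gene arrays. The authors processed the scans by RMA, named without a version in the submitters' processing notes, and deposited log2 values, which were used with no further normalization. Array medians were 4.77 to 4.79. The methods describe probe sets redefined by gene, whereas the table holds 35556 of the manufacturer's probe sets. Of these 21218 had 1 gene in the annotation, 1881 several and 12457 none, and only the first were used. The methods and the labels also differ in the weeks of diet before injection (1 and 2). Identical values in at least 2 mice occurred in 12042 of 18820 genes and in 15 of 41 members. Processed copies of these genes elsewhere in the genome may share probes.

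limma 3.58.1 (R 4.3.3) fitted 1 mean per group over 9 arrays with an intensity trend, two-sided p-values and Benjamini-Hochberg adjustment over 18820 genes. The threshold was an adjusted p of 0.05, beside the methods' unadjusted 0.05. The fit was run on simulated data with changes larger than those of every member but Cox4i2. That run gives no measure of how well smaller changes are found. Ratios of isoforms were tested by exact permutation (scipy 1.17.1), a test added after the data were seen, as were the pericyte list and the motifs. Members and lists were chosen with earlier results of these data known. Values were given in full for members past the adjusted threshold, the 4 smallest p of each complex between MCT and sham, the 4 smallest between MCT+NI and MCT, and isoform pairs; other genes named were chosen after their values were seen. The number of arrays limits the precision. Mice are separate animals. Promoters are from RefSeq (GRCm38.p6). Alternatives were no intensity trend, a filter on low values, averaged probe sets, only the 2 groups compared, repeated quantile normalization, centred arrays, the atrial level (mean of the atrial transcripts), and leaving out mice.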

Additional observations from a re-analysis of the deposited data

How the results depend on the processing

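In all 17 alternatives more members were lower than higher in MCT compared with sham mice, and more were higher than lower in MCT+NI compared with MCT mice. Counts at the thresholds moved more. Between MCT and sham mice, members lower at an unadjusted p under 0.05 numbered 13, but 2 without the intensity trend, 2 after repeated quantile normalization, 7 with the atrial level as a covariate, 22 with centred arrays, and 6 to 16 when 1 mouse was left out; members higher numbered 3 with the atrial level and 1 to 2 without 1 mouse. Members lower at an adjusted p under 0.05 numbered 2 with centred arrays (Cox5b and Cox6a2), 2 among genes at or above the median level (Atp5b and Cox6a2) and 0 to 1 without 1 mouse (Cox6a2 without mouse 644). With the atrial level 0 members were higher at that threshold in MCT or in MCT+NI compared with sham mice. Centring the arrays moved the median of all genes from -0.016 to -0.080 and that of the members to -0.128 (complex III -0.147, complex IV -0.120, ATP synthase -0.128). The median of complex IV was -0.029 after repeated quantile normalization and -0.078 to -0.027 without 1 mouse (-0.027 without mouse 620). Uqcrh changed sign with averaged probe sets (0.0013).

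Between MCT+NI and MCT mice, members higher at an unadjusted p under 0.05 numbered 2 without the trend, 4 after repeated quantile normalization and 2 to 8 without 1 mouse (2 without mouse 617, 3 without mouse 619 or 640). The median of the members was 0.034 to 0.077 without 1 mouse, and that of complex IV 0.019 to 0.046, or 0.016 after repeated quantile normalization. Between MCT+NI and sham mice, members lower at an unadjusted p under 0.05 numbered 0 without the trend, 1 with the atrial level and 5 with centred arrays, and 1 was lower at an adjusted p under 0.05 among genes at or above the median level (Atp5b). Members higher numbered 1 with centred arrays, averaged probe sets, no trend or without mice 644 and 615, and 1 to 2 without 1 mouse. The medians had no stable sign. With centred arrays they were -0.053 over all members, -0.030 in complex III, -0.071 in complex IV and -0.053 in ATP synthase. After repeated quantile normalization they were 0.0063 over all members and 0.018 in ATP synthase, and with the atrial level -0.0019 in complex III. Without mice 644 and 615 they were 0.015, 0.0034 in complex IV and 0.020 in ATP synthase. Without 1 mouse they ran from -0.019 to 0.015, in complex III from -0.014 to 0.044, in complex IV from -0.031 to 0.010 and in ATP synthase from -0.019 to 0.020. The causes were not tested. No paired analysis was possible because the mouse numbers differ between the groups.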

Other observations

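Cox7c and Uqcrc2 had no probe set of their own. The 3 probe sets that Cox7c, a small complex IV subunit, shares with Gm10012 had mean log2 values of 12.00, 12.16 and 12.12 in sham mice, 11.98, 12.13 and 12.09 in MCT mice and 12.01, 12.16 and 12.11 in MCT+NI mice. The brighter probe set that Uqcrc2, a core protein of complex III, shares with Pdzd9 had a mean of 11.65 ± 0.062 (SD, n = 3) in the sham group, 11.54 ± 0.049 in the MCT group and 11.64 ± 0.087 in the MCT+NI group. These values were not tested.

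The 16 members with several probe sets had 25 further, dimmer ones. Of these 23 had a lower mean in MCT than in sham mice, with differences from -0.140 to 0.106 and a median of -0.059. They are annotated to the same genes and were read on the same arrays, so they are not independent of the values above.

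Transcripts of brown fat, which is rich in mitochondria and can lie close to the heart, were searched in the same arrays. Of Ucp1, Cidea, Dio2 and Elovl3, 0 of 4 passed the adjusted threshold in any comparison. The log2 values of Ucp1, the uncoupling protein that defines this tissue, lay between 3.31 and 3.81 in the 9 mice.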
